A study of Rattus norvegicus with 6 samples.

Results

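The genes described here are 34 genes of the interferon response and of antigen presentation by MHC class I, picked by gene name from the 32623 genes of the deposited table. All 34 names were found. They were sorted by role into 3 interferon receptor genes, 6 transcription factors of the IRF and STAT families, 3 cytosolic RNA sensors, 15 antiviral effectors and their regulators, and 7 genes of antigen processing and presentation. They were measured by bulk RNA sequencing of total RNA from C6, a cell line derived from a rat glioma, in 3 libraries from cells kept for 24 h in forskolin (FSK), which activates adenylyl cyclase and raises cAMP, and 3 libraries from cells kept for 24 h in the solvent DMSO. Both groups were the same line in the same serum-containing medium, and the labels name no genetic change. The forskolin dose is not given in the sources used here, and the labels name no interferon or virus treatment.

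Interferons are secreted proteins that warn cells of infection. Type I interferons bind the receptor pair IFNAR1 and IFNAR2, and interferon gamma binds IFNGR1 and IFNGR2. Janus kinases on these receptors then phosphorylate STAT proteins, which enter the nucleus, in part together with IRF9, and switch on interferon-stimulated genes through DNA elements called ISRE and GAS. Many of these genes block viral replication, and others feed peptides cut by the proteasome onto MHC class I molecules for inspection by T cells. Glial cells express much of this machinery at a low resting level.

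Library totals ran from 72.1 to 80 M counts, and 17832 genes had at least 1 count. Of the 8 markers of C6, astroglial or progenitor cells, all were expressed, with a summed level of 3910 to 4010 CPM in DMSO and 4580 to 4660 CPM in FSK; CPM here is the count scaled to library size and trimmed-mean (TMM) factor, so that it can be compared between libraries. Of these 8 markers, 4 rose and 3 fell, among them Gfap, the astrocyte filament gene, which rose by 3.46 on the log2 scale (edgeR adjusted p = 5.15e-08). The 7 lymphocyte markers summed to 0.918 to 1.08 CPM in DMSO and 0.852 to 1.32 CPM in FSK, with 4 of them at 0 in all libraries, and the 6 endothelial markers to 2.09 to 2.47 and 0.762 to 1.15 CPM, with 2 at 0. The 13 microglia and macrophage markers summed to 164 to 194 CPM in DMSO and 151 to 161 CPM in FSK, nearly all of it from Tmem119; without Tmem119 the sums were 0.77 to 3.33 and 6.75 to 7.99 CPM. Within that list Cd68, a lysosomal gene, rose by 3.11 on the log2 scale (edgeR adjusted p = 3.74e-05). Tmem119 itself fell (log2 fold change -0.29, edgeR adjusted p = 0.0175), and P2ry12 did not pass (-0.37, 0.676). The leukocyte genes Ptprc and Itgam and the myeloid adaptor gene Tyrobp had no count in DMSO and were too low to test. The complement gene C1qa had 0, 0 and 27 counts in DMSO replicates 1 to 3 and 42, 33 and 25 in FSK replicates 1 to 3 (log2 fold change 2.00 ± 1.33). Csf1r, C1qb, C1qc and Adgre1 also had positive log2 fold changes, 1.2 to 2.13, and did not pass. Each of these 5 genes had at least 22 counts in DMSO replicate 3 and at most 5 in the other DMSO libraries. Mitochondrially encoded genes took 2.75 to 3.03% of counts in DMSO and 3.28 to 3.59% in FSK, without overlap. The part of these marker and mitochondrial differences in the results that follow was not tested.

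After 24 h in forskolin the interferon and antigen presentation genes moved in both directions. Of the 32 that passed the expression filter, 8 rose, 9 fell and 15 did not pass an adjusted p of 0.05 (edgeR quasi-likelihood test, Benjamini-Hochberg adjusted over 14166 genes). Over all tested genes 39.4% were called, 19.6% as rises and 19.8% as falls, and the 17 calls among 32 are to be read against that background. The members' median log2 fold change was -0.14, beside -0.01 over all tested genes, and it moved to -0.04 without FSK replicate 1. The rises ran from 1.21-fold to 3.05-fold and the falls from 1.14-fold to 4.44-fold. Of the rises, 4 of 8 reached 1.5-fold, and of the falls 4 of 9. In all 17 called genes, and in 3 of the 15 others, the CPM ranges of the groups did not overlap, 20 of 32 genes in all; over all tested genes that share was 53%. The filter needs counts in enough libraries of a group, so the low genes that passed it are not a sample of all 34. In bulk RNA, fewer cells expressing a gene and less of its RNA per cell cannot be told apart.

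**Figure D1:**
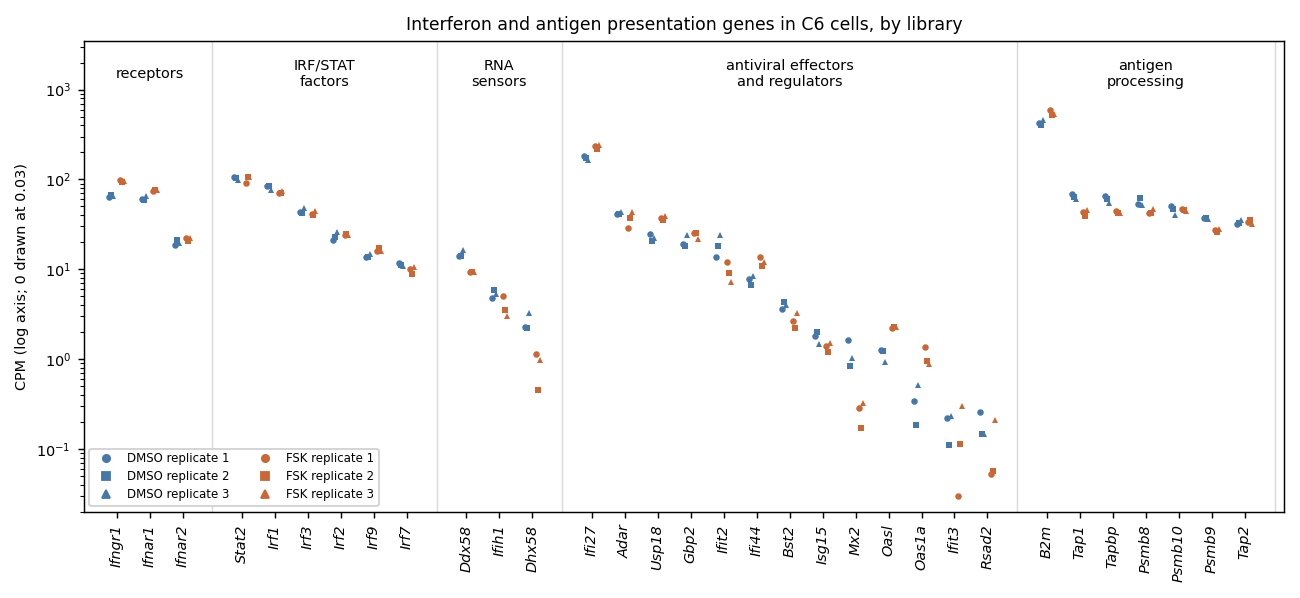
CPM (log axis, 0 drawn at 0.03) of the 32 tested genes in each of the 6 libraries, blue for DMSO and orange for FSK, grouped by role. The genes span from B2m, at 406 to 600.5 CPM, down to Ifit3 and Rsad2, below 0.31 CPM in every library.

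Compared per length, as mean FPKM (fragments scaled to transcript length and library size) in the group where each gene was higher, 2 genes exceeded 100, 14 lay between 10 and 100, 10 between 1 and 10, and 6 tested genes under 1. At the top were B2m, with 234 ± 16.9 FPKM in DMSO and 288 ± 24.3 in FSK (SD, n = 3), and Ifi27, with 218 ± 9.91 and 276 ± 11.6 FPKM. The 6 low genes were Dhx58, Mx2, Oas1a, Oasl, Ifit3 and Rsad2. Of the genes not tested, Ifit1, an RNA-binding antiviral gene, had no count in any of the 6 libraries; a floor of 3 counts corresponds to 0.0375 to 0.0416 CPM, counting error only. Mx1, an antiviral GTPase gene, had 8 counts in DMSO replicate 3 and 0 in the other 5 libraries.

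Of the 3 receptor genes, Ifngr1 and Ifnar1 rose and Ifnar2 did not pass, beside 19.6% rises over all tested genes. Ifngr1, the ligand-binding chain of the interferon gamma receptor, measured 64.2, 66.4 and 65.4 CPM in DMSO replicates 1 to 3 and 98.0, 93.2 and 95.9 CPM in FSK replicates 1 to 3. Each FSK library was higher than each DMSO library, by a wide gap relative to the spread within a group, and the log2 fold change was 0.55 ± 0.05 (SE; edgeR adjusted p = 0.000105). Ifnar1, a chain of the type I receptor, had 60.4, 59.8 and 65.9 CPM in DMSO and 74.0, 75.6 and 75.7 CPM in FSK. Its groups did not overlap either, and it rose by 0.28 ± 0.06 on the log2 scale (adjusted p = 0.00665). Ifnar2, the partner chain, had 18.5 to 21.1 CPM in DMSO and 20.5 to 22.2 CPM in FSK, overlapping ranges, with a log2 fold change of 0.13 ± 0.09 (adjusted p = 0.3). On Rnor_6.0, Ifnar2 (chr11:31539016-31558851) and Ifnar1 (chr11:31640407-31664061) lie on the plus strand within 125 kb, with Il10rb, a receptor chain for interleukin-10 and interferon lambda, between them; Il10rb rose by 0.43 on the log2 scale (adjusted p = 0.0135). Ifngr2, the signalling chain of the gamma receptor, had 33.1, 33.8 and 32.4 CPM in DMSO and 42.8, 40.8 and 38.2 CPM in FSK and rose by 0.29 (adjusted p = 0.0117).

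Of the 6 transcription factors, Irf1 fell and 5 did not pass, beside 19.8% falls over all tested genes. Irf1, a factor that itself responds to interferon gamma and drives antigen processing genes, had 84.1, 84.4 and 76.0 CPM in DMSO and 70.6, 71.0 and 73.9 CPM in FSK. The highest FSK library was just below the lowest DMSO library, and the fall of 0.18 ± 0.06 on the log2 scale had an adjusted p of 0.0425. That call was lost when any of 5 libraries was left out, with adjusted p = 0.12 without DMSO replicate 1, 0.16 without DMSO replicate 2, and 0.0942, 0.129 and 0.0788 without FSK replicates 1, 2 and 3; it was also lost with DESeq2 size factors (0.0502) and without an expression filter (0.0549). Irf9 and Stat2 encode subunits of a complex that binds the ISRE. Irf9 had 13.8, 13.6 and 14.8 CPM in DMSO and 16.1, 17.2 and 15.8 CPM in FSK, without overlap, but did not pass at 0.22 ± 0.09 (adjusted p = 0.0903). Stat2 had overlapping ranges and a log2 fold change of -0.03 ± 0.07, with a 95% interval from -0.20 to 0.14. Irf2, a repressor related to Irf1, Irf3, the factor that sensors activate, and Irf7, the amplifier of type I interferon, did not pass, with log2 fold changes of 0.05 ± 0.09, -0.09 ± 0.08 and -0.19 ± 0.11. The strand rule of the counting is not given, so reads of overlapping genes could not be separated: Irf3 overlaps Bcl2l12 on the opposite strand, which fell by 0.35 (adjusted p = 0.0255), Irf7 overlaps Phrf1 likewise, and Irf2 shares its strand with 2 untested loci.

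Among the 3 RNA sensors, Ddx58 and Dhx58 fell and Ifih1 did not pass, beside 19.8% falls over all tested genes. Ddx58 encodes RIG-I, which detects uncapped RNA ends, and measured 14.0, 14.2 and 16.4 CPM in DMSO against 9.29, 9.36 and 9.21 CPM in FSK. The FSK libraries were nearly identical to each other and all below the DMSO libraries, and the log2 fold change was -0.68 ± 0.10, a 1.6-fold fall (adjusted p = 0.00136). Dhx58 encodes LGP2, a regulator of the other sensors, and was low, at 2.27, 2.19 and 3.26 CPM in DMSO and 1.14, 0.451 and 0.972 CPM in FSK. Its groups were separate and it fell 3.01-fold, with a wide error on the log2 scale, -1.59 ± 0.37 (adjusted p = 0.0108). Ifih1 encodes MDA5, the sensor of long double-stranded RNA, and had 4.85, 5.83 and 5.25 CPM in DMSO and 5.10, 3.48 and 3.02 CPM in FSK. FSK replicate 1 lay inside the DMSO range and the other FSK libraries below it; the log2 fold change was -0.46 ± 0.22 (adjusted p = 0.13), and -0.71 with an adjusted p of 0.0238 when FSK replicate 1 was left out.

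**Figure D2:**
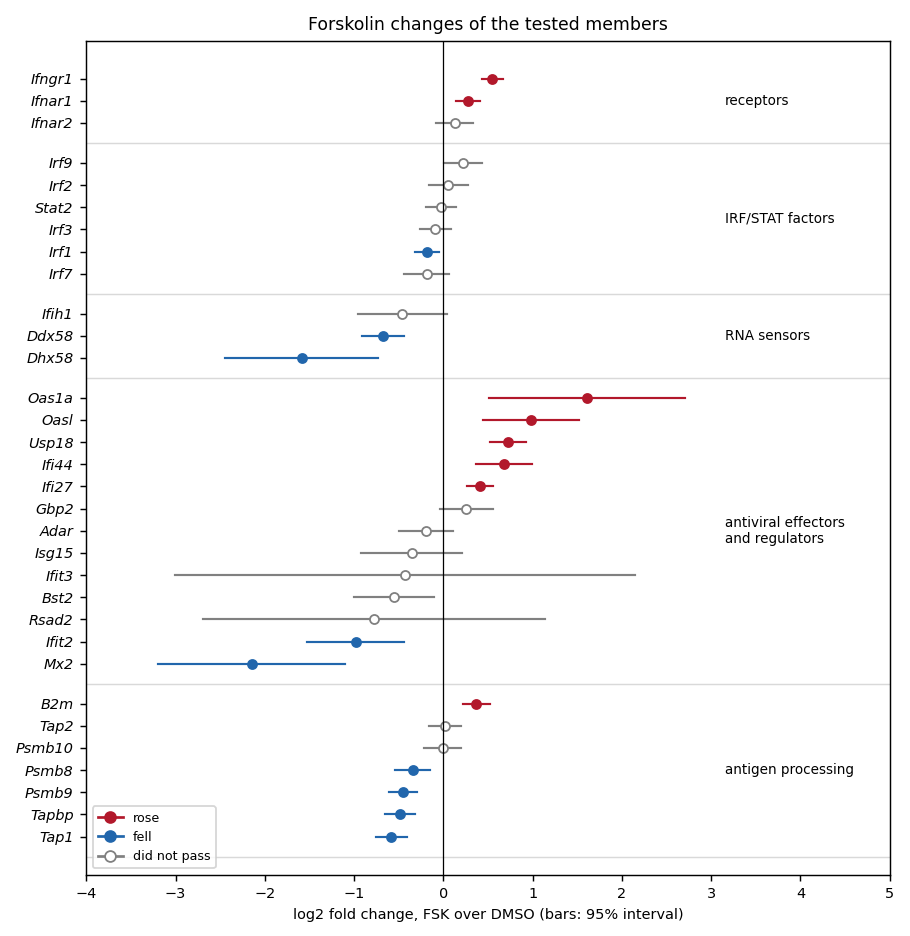
Log2 fold change (FSK over DMSO, with 95% interval) of each tested gene from the edgeR fit, grouped by role; red rose, blue fell, open circles did not pass. Receptor changes lie between 0.13 and 0.55, sensor changes between -1.59 and -0.46, and the antiviral genes span from -2.15 (Mx2) to 1.61 (Oas1a), with wide intervals for the low genes.

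The antiviral effectors and regulators split, with 5 rises, 2 falls and 6 that did not pass among 13 tested. Over all tested genes the shares were 19.6% rises and 19.8% falls. The rise with the smallest adjusted p among these effectors and regulators was that of Usp18, a protease that removes ISG15 from proteins and dampens IFNAR2 signalling. It measured 24.4, 20.8 and 22.5 CPM in DMSO and 37.3, 35.1 and 39.3 CPM in FSK. All FSK libraries were higher, and the log2 fold change was 0.72 ± 0.09, a 1.65-fold rise (edgeR adjusted p = 0.000495). Ifi27, which encodes a small membrane protein of the interferon response, had 183.9, 175.3 and 162.6 CPM in DMSO and 234.9, 219.9 and 239.9 CPM in FSK, again without overlap, and rose by 0.41 ± 0.06 (adjusted p = 0.00137). Ifi44, a cytoplasmic interferon-induced gene, had 7.75, 6.61 and 8.4 CPM in DMSO and 13.6, 10.9 and 12.03 CPM in FSK. Its lowest FSK library was above its highest DMSO library, a rise of 0.68 ± 0.14 on the log2 scale (adjusted p = 0.00538).

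Oasl and Oas1a belong to the oligoadenylate synthetase family, whose active members make the messenger that switches on RNase L. Oasl had 1.25, 1.24 and 0.933 CPM in DMSO and 2.24, 2.27 and 2.26 CPM in FSK. The FSK libraries agreed closely and were all higher, with a log2 fold change of 0.98 ± 0.23 (adjusted p = 0.0114). Oas1a rested on few counts, 25, 15 and 43 in DMSO and 104, 68 and 68 in FSK, or 0.344, 0.184 and 0.521 CPM against 1.36, 0.957 and 0.893 CPM. The groups were separate and the log2 fold change was 1.61 ± 0.48 (adjusted p = 0.0288), but the call was lost without DMSO replicate 1 (adjusted p = 0.0659), DMSO replicate 2 (0.0736), and FSK replicates 1, 2 and 3 (0.0992, 0.0602 and 0.0515). The table holds other Oas1 genes, whose sequences were not compared here. Reads can be split between close copies, so the level of Oas1a is uncertain.

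The falls were Mx2 and Ifit2. Mx2, an antiviral GTPase gene, had 1.62, 0.845 and 1.04 CPM in DMSO and 0.288, 0.169 and 0.328 CPM in FSK. Every FSK library was below every DMSO library, and the gene fell by 2.15 ± 0.46 on the log2 scale, 4.44-fold (adjusted p = 0.00689), at a level under 1 FPKM in both groups. Ifit2, which encodes an RNA-binding inhibitor of translation, had 13.7, 18.3 and 23.8 CPM in DMSO and 11.98, 8.997 and 7.27 CPM in FSK. Spread was large in both groups, but they did not overlap, and the fall was 0.98 ± 0.24 on the log2 scale (adjusted p = 0.0122). Ifit2, Ifit3 and Ifit1 lie within 51.51 kb on chromosome 1 (Rnor_6.0). Ifit3 was at 0.302 CPM or less in every library, with no count in FSK replicate 1, and was too low to place (-0.43 ± 1.12).

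Several effectors that are usually induced together with these did not pass. Bst2 encodes tetherin, which holds budding viruses at the cell surface, and had 3.66, 4.30 and 4.05 CPM in DMSO and 2.67, 2.24 and 3.25 CPM in FSK. Those ranges did not overlap, yet the log2 fold change of -0.56 ± 0.20 had an adjusted p of 0.0527, and 0.0428 without FSK replicate 3. Isg15, the ubiquitin-like modifier, was low and overlapping, at 1.49 to 2.00 CPM in DMSO and 1.21 to 1.52 CPM in FSK (log2 fold change -0.35 ± 0.25, adjusted p = 0.292). Adar, an RNA-editing enzyme, had 40.9, 41.4 and 42.9 CPM in DMSO and 28.9, 37.2 and 43.1 CPM in FSK. The FSK libraries scattered from well below the DMSO range to just above it, and the log2 fold change was -0.20 ± 0.13 (adjusted p = 0.277). Gbp2, a GTPase of the guanylate-binding family, gave 0.25 ± 0.13 (adjusted p = 0.154, and 0.0387 without DMSO replicate 3), and Rsad2, which encodes viperin, -0.78 ± 0.83 at 0.261 CPM or less.

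In antigen processing, 4 of 7 genes fell, B2m rose and Psmb10 and Tap2 did not pass, beside 19.8% falls and 19.6% rises over all tested genes. Tap1 and Tap2 encode the paired chains of the transporter that carries peptides into the endoplasmic reticulum. Tap1 measured 68.2, 63.4 and 60.3 CPM in DMSO and 43.2, 39.6 and 45.5 CPM in FSK. All FSK libraries were lower by a clear gap, a fall of 0.58 ± 0.08 on the log2 scale, 1.5-fold (edgeR adjusted p = 0.000665). Tap2 had 32.1, 32.5 and 35.7 CPM in DMSO and 33.7, 35.8 and 32.0 CPM in FSK, overlapping throughout, with a log2 fold change of 0.02 ± 0.08 and a 95% interval from -0.16 to 0.20. On the FPKM scale the Tap1 level was 128 ± 14.6% of the Tap2 level in DMSO and 84.3 ± 10.5% in FSK (SD, n = 3). The groups did not overlap, so that on this scale the order of these chains differed between DMSO and FSK. Whether another locus takes reads of Tap2, which could shift these percentages, was not tested. Tapbp encodes tapasin, which holds empty MHC class I at the transporter, and had 65.5, 59.9 and 55.2 CPM in DMSO and 44.2, 42.6 and 42.1 CPM in FSK. Its groups were separate and it fell by 0.49 ± 0.07 (adjusted p = 0.00142). A locus on the other strand within Tapbp did not pass (-0.05, adjusted p = 0.91).

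B2m, the light chain of MHC class I, went the other way. It measured 422.6, 405.8 and 454.9 CPM in DMSO and 600.5, 525.4 and 533.2 CPM in FSK. The lowest FSK library was above the highest DMSO library, a rise of 0.37 ± 0.07 on the log2 scale (adjusted p = 0.00345). B2m is on chromosome 3 (chr3:114087287-114093309, plus strand, Rnor_6.0), apart from the other genes of this role.

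Psmb8, Psmb9 and Psmb10 encode the inducible catalytic subunits that take the places of Psmb5, Psmb6 and Psmb7 in the immunoproteasome. Psmb8 had 53.5, 61.6 and 52.0 CPM in DMSO and 41.8, 42.8 and 47.0 CPM in FSK, separate groups, and fell by 0.35 ± 0.08 (adjusted p = 0.0126). Psmb9 had 37.3, 37.4 and 36.4 CPM in DMSO and 27.4, 25.9 and 27.9 CPM in FSK. Here the replicates were tight and the groups well apart, with a fall of 0.45 ± 0.07 (adjusted p = 0.00149). Psmb10 had 50.2, 46.9 and 39.9 CPM in DMSO and 46.6, 45.4 and 44.2 CPM in FSK, all of the FSK values inside the DMSO range, with a log2 fold change of -0.01 ± 0.09 and a 95% interval from -0.21 to 0.20. Among the constitutive subunits, Psmb6 fell by 0.27 (adjusted p = 0.0115, and 0.0513 without DMSO replicate 2), while Psmb5 (0.15, adjusted p = 0.15, and 0.0392 without DMSO replicate 1) and Psmb7 (-0.07, adjusted p = 0.316, and 0.0253 and 0.0272 with limma on log2(FPKM + 1) and log2(FPKM + 0.1)) did not pass.

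Set against their constitutive counterparts on the FPKM scale, Psmb8 was at 9.77 ± 1.1% of Psmb5 in DMSO and 6.9 ± 0.231% in FSK, and Psmb9 at 9.04 ± 0.631% of Psmb6 in DMSO and 7.96 ± 0.29% in FSK (SD, n = 3), without overlap in either ratio. Psmb10 was at 24.3 ± 1.85% of Psmb7 in DMSO and 25.4 ± 1.01% in FSK, with overlap. The summed level of the inducible subunits was 13.2 ± 0.373% of that of the constitutive ones in DMSO and 11.9 ± 0.159% in FSK. These ratios describe the libraries and carry no test.

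**Figure D3:**
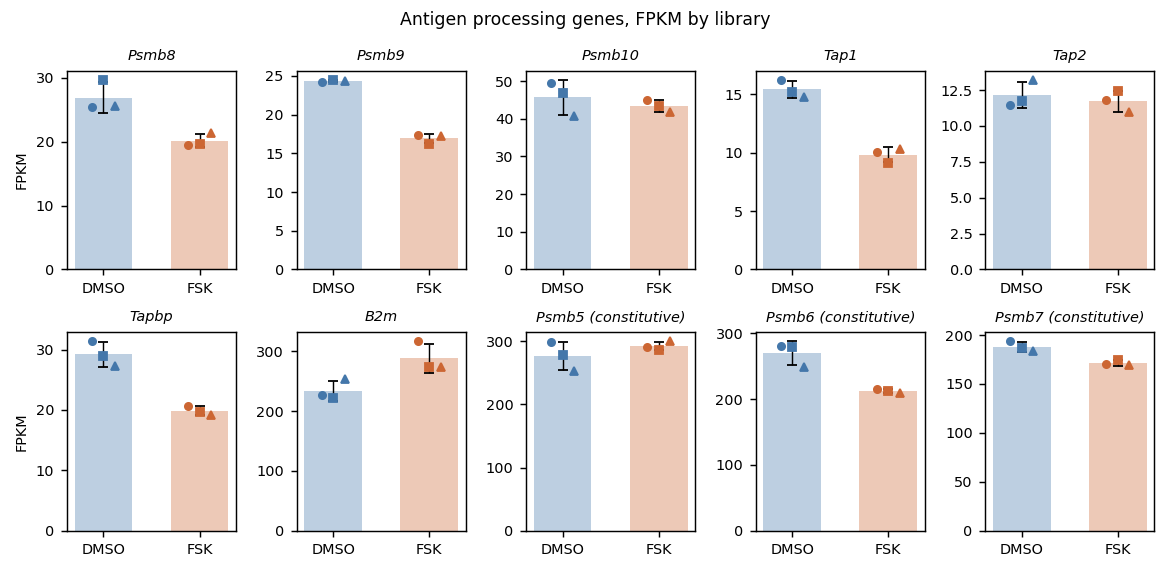
FPKM of the 7 antigen processing genes and of the 3 constitutive proteasome subunits in each library (points), with group means (bars) and SD (whiskers, n = 3), each axis from 0. The DMSO and FSK points are separate for Psmb8, Psmb9, Tap1, Tapbp and B2m and for the constitutive Psmb6 and Psmb7, and mix for Psmb10, Tap2 and Psmb5. On the CPM scale the Psmb7 groups overlap, at 333.4, 318.8 and 306 CPM in DMSO and 299.4, 310 and 305.2 CPM in FSK.

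The falls of Psmb9, Tap1 and Psmb8 came from a single stretch of chromosome 20. On Rnor_6.0 the 3 genes lie within 20.35 kb, Psmb9 (chr20:3973420-3978845) on the minus strand and Tap1 (chr20:3979035-3989669) and Psmb8 (chr20:3990613-3993769) on the plus strand. Psmb9 and Tap1 start 189 bases apart and point away from each other. The next annotated gene that was tested, LOC103689996, did not pass (-0.19, adjusted p = 0.211). Beside the other groups of neighbouring members, each flanking gene that was tested passed, against 39.4% called over all tested genes. Lipa (-0.83, edgeR adjusted p = 1.51e-05) and Slc16a12 (-7.39 ± 1.5, 0.0105), beside the Ifit genes, fell. Zbtb22, beside Tapbp, fell (-0.26, 0.017). Olig1, beside Ifnar2, and Bace2, beside Mx1, rose (0.82, 0.00931 and 1.12, 2.49e-05). Tap2 and Tapbp lie 277.9 kb from end to end elsewhere on chromosome 20 in this build, with 24 other genes between them. On another build, GRCr8, the bases before the Tap2 start (chr20:4652297-4652546) lie close to those before the Tap1 start (chr20:4668544-4668793). Whether Tap2 lies apart from the stretch of Psmb9, Tap1 and Psmb8 therefore depends on the build.

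Promoter sequence was compared because called and uncalled genes of the same pathway stood side by side. RefSeq windows on the GRCr8 build, from 250 bases before to 50 bases after the gene start, were found for 25 of the 34 genes. The ISRE core was searched on both strands as GAAA, any 2 bases and GAAA again. It occurred in 15 of 25 windows (60%), against 3.92% of all 33469 promoter windows of the table. It was present in 4 of 7 windows of genes that rose, 3 of 5 of genes that fell and 8 of 12 of genes that did not pass. No window was found for Irf2, Ddx58, Dhx58, Mx2, Isg15, Ifit1, Ifit2, Usp18 and Adar. Ddx58, Dhx58, Mx2 and Ifit2 had the largest falls of all members, so the windows of genes that fell leave these out. The GAS letters TTCNNNGAA, the same on both strands, occurred in 6 of 25 windows (24%) against 8.87% of all. The CRE, the site of the cAMP-responsive factor CREB, was searched as TGACGTCA and found in 0 of 25 windows against 1.83% of all. At that share 0 is a likely count for 25 windows, so no lack of the CRE can be read from it. Its shorter form TGACG, which lies within it, occurred in 7 of 25 (28%) against 21.2%. A match describes letters in a window and not a bound site.

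The 250 bases before the start are shown, in GRCr8 coordinates, for 3 genes that rose (B2m at chr3:129549080-129549329 and Oas1a at chr12:41330216-41330465 on the plus strand, Ifi44 at chr2:243303841-243304090 on the minus strand), 2 that fell (Tap1 at chr20:4668544-4668793 and Tapbp at chr20:4967878-4968127, both minus in this build) and Tap2, which did not pass (chr20:4652297-4652546, minus), so that an ISRE core can be seen in each kind. Sequences run 5′ to 3′ along the gene, and capitals mark the ISRE core.
B2m: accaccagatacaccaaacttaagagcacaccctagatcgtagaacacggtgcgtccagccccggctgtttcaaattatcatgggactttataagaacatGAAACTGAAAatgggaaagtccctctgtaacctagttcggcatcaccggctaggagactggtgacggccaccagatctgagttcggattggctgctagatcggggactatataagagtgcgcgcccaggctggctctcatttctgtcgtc
Oas1a: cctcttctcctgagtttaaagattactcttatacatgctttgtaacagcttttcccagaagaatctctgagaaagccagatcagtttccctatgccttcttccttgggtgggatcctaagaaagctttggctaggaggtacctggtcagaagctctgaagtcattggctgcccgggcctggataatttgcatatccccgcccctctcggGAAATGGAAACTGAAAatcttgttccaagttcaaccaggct
Ifi44: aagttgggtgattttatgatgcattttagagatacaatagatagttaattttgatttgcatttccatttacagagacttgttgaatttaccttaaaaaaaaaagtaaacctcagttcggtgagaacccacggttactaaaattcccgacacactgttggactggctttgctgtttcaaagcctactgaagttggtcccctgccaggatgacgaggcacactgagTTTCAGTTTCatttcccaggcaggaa
Tap1: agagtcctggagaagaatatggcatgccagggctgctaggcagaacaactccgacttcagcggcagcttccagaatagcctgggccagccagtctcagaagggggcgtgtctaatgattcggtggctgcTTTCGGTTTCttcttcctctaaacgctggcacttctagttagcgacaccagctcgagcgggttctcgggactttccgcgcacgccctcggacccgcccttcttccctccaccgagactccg
Tapbp: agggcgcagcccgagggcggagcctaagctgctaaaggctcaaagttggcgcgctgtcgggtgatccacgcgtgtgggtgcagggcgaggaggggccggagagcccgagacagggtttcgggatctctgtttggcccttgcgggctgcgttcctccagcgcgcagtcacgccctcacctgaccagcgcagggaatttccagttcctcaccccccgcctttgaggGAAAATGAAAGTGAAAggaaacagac
Tap2: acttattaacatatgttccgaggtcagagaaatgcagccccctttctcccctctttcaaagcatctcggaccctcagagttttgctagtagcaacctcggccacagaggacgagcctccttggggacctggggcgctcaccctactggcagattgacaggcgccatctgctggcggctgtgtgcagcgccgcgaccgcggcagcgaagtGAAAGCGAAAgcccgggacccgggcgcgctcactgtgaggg

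In Oas1a and in Tapbp the capitals hold a pair of overlapping ISRE cores close to the start, at -41 to -26 and -26 to -11. The Tap2 core lies at -41 to -32, the B2m core at -150 to -141, and the Tap1 core, on the other strand, at -121 to -112. Ifi44 carries one core on the other strand at -26 to -17 and a further one after the start. The GRCr8 windows of Tap1 and Psmb9 face opposite ways and share 44 bases, and the ISRE core was not found in the Psmb9 window. That overlap puts the RefSeq starts of Tap1 and Psmb9 farther apart than the 189 bases on Rnor_6.0. Whether the Tap1 core also falls within a Psmb9 window thus depends on which annotated starts are used.

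**Figure D4:**
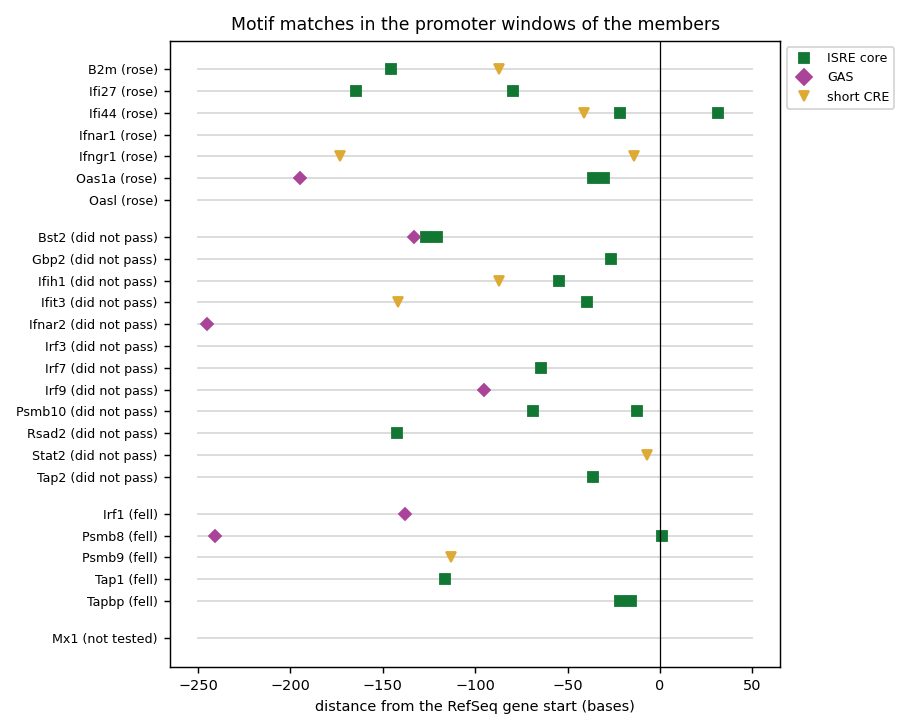
Positions of ISRE core, GAS and short CRE matches (symbols) in the 25 RefSeq windows, in bases from the gene start, with genes grouped by their call in FSK against DMSO. ISRE cores appear in 4 of 7 windows of genes that rose, 3 of 5 of genes that fell and 8 of 12 of genes that did not pass. Ddx58, Dhx58, Mx2 and Ifit2, which fell, had no window.

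Other genes of the pathway were read from lists of 100 names, of which 92 were in the table and 74 were tested. Of these, 12 rose, 20 fell and 42 did not pass, with a median log2 fold change of -0.16, beside the background of 19.6% rises and 19.8% falls over all tested genes (39.4% called) and a median of -0.01. The count of falls dropped to 13 without DMSO replicate 2 and to 13 without FSK replicate 2. Interferon genes themselves were almost silent: 9 of the 10 in the table had no count in any library, and Ifne, an epithelial type I interferon, gave 25, 29 and 8 counts in the DMSO libraries against 6, 23 and 12 in the FSK libraries, which overlap (log2 fold change -0.50 ± 0.79, adjusted p = 0.651).

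Among 12 tested genes of receptors, JAK-STAT signalling and its brakes, 4 rose and 4 fell, beside 19.6% and 19.8% over all tested genes. Stat3, the factor of interleukin-6 type cytokines, had 171.0, 176.9 and 169.1 CPM in DMSO and 296.7, 332.4 and 342.4 CPM in FSK, separate groups, and rose by 0.91 ± 0.06 (adjusted p = 2.53e-05). Socs3, a feedback inhibitor of cytokine receptors, had 23.5, 22.1 and 21.8 CPM in DMSO and 45.4, 50.2 and 52.7 CPM in FSK and rose 2.2-fold (adjusted p = 2.7e-05). Ptpn6, a phosphatase that restrains JAK signalling, fell by 0.81 (adjusted p = 0.000848). Jak1, a Janus kinase, fell by 0.36 (edgeR adjusted p = 0.00176) and kept that call in all 13 alternative settings. Jak2, a kinase of the gamma receptor, fell by 0.43 with an adjusted p of 0.0463; the call was lost without DMSO replicates 1 and 3 (0.0619 and 0.139) and without FSK replicates 1, 2 and 3 (0.0913, 0.0584 and 0.144), without an expression filter (0.056) and with limma on log2(FPKM + 1) and log2(FPKM + 0.1) (0.0572 and 0.0555).

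Of 10 tested sensing adaptors and kinases, 3 rose and 1 fell, a called share near the 39.4% over all tested genes. Tmem173, which encodes STING, the adaptor of DNA sensing, had 12.4, 11.4 and 10.3 CPM in DMSO and 17.9, 17.5 and 17.8 CPM in FSK, a rise of 0.64 ± 0.10 (adjusted p = 0.00172). Myd88, the adaptor of most Toll-like receptors, rose by 0.58 (adjusted p = 0.000301). Ikbke, an IRF kinase, rose by 0.40 (adjusted p = 0.0148, and 0.057 and 0.0542 without DMSO replicate 2 and FSK replicate 2). Tlr3, the endosomal sensor of double-stranded RNA, had 1.72, 3.18 and 3.96 CPM in DMSO and 1.80, 1.45 and 1.24 CPM in FSK. DMSO replicate 1 lay inside the FSK range, and the fall of 0.98 (adjusted p = 0.045) was lost without DMSO replicates 2 and 3 (0.118 and 0.16) and without FSK replicates 1, 2 and 3 (0.0613, 0.12 and 0.134), without an expression filter (0.0581) and with both limma settings (0.0706 and 0.0764).

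Of 29 other tested interferon-stimulated genes, 4 rose and 10 fell, beside backgrounds of 19.6% and 19.8%. Cxcl10, a chemokine that draws T cells, fell from 82.5, 91.4 and 95.3 CPM in DMSO to 15.8, 13.5 and 15.9 CPM in FSK. That gap far exceeded the spread of either group, and the fall was 5.95-fold (log2 -2.57 ± 0.09, adjusted p = 1e-06). Ifitm3, a membrane protein that blocks virus entry, had 27.4, 24.96 and 27.4 CPM in DMSO and 79.4, 73.6 and 68.6 CPM in FSK and rose 2.78-fold (adjusted p = 5.88e-06). Gbp5, an interferon gamma-induced GTPase, fell 2.00-fold (adjusted p = 0.00446). Herc6, the ligase that attaches ISG15 in the mouse, was low, at 0.825 to 1.79 CPM in DMSO and 0 to 0.302 CPM in FSK; its fall of 2.75 (adjusted p = 0.047) was lost without DMSO replicates 1, 2 and 3 (0.0697, 0.0865 and 0.165) and FSK replicates 1 and 3 (0.102 and 0.0653), and without an expression filter (0.067).

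Of 22 tested genes of MHC and peptide loading, 1 rose and 5 fell. The share of falls was near the 19.8% over all tested genes, and that of rises below 19.6%. These shares depend on the names listed. Of the RT1 genes in the table, only part of them on this list, 22 were tested, 8 fell and 0 rose. RT1-N3, a nonclassical class I heavy chain, fell from 48.5, 48.4 and 39.1 CPM in DMSO to 31.5, 32.2 and 30.0 CPM in FSK (log2 -0.54 ± 0.10, adjusted p = 0.003). RT1-T24-4, another class I gene, fell by 0.55 (adjusted p = 0.0161, and 0.0618 and 0.0517 without DMSO replicate 2 and FSK replicate 2). RT1-A2, a classical class I heavy chain, fell by 0.35 (adjusted p = 0.0231, and 0.0824, 0.0696 and 0.0732 without DMSO replicate 2, FSK replicate 1 and FSK replicate 2). Psme2, a subunit of the PA28 proteasome activator, had 222.7, 217.5 and 214.7 CPM in DMSO and 181.7, 179.8 and 167.3 CPM in FSK, without overlap, and fell by 0.31 (adjusted p = 0.00226). The rise was Psme3, a nuclear proteasome activator (0.24, adjusted p = 0.00726). Sequences of the class I heavy chain genes were not compared here, and reads can be split among close copies.

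**Figure D5:**
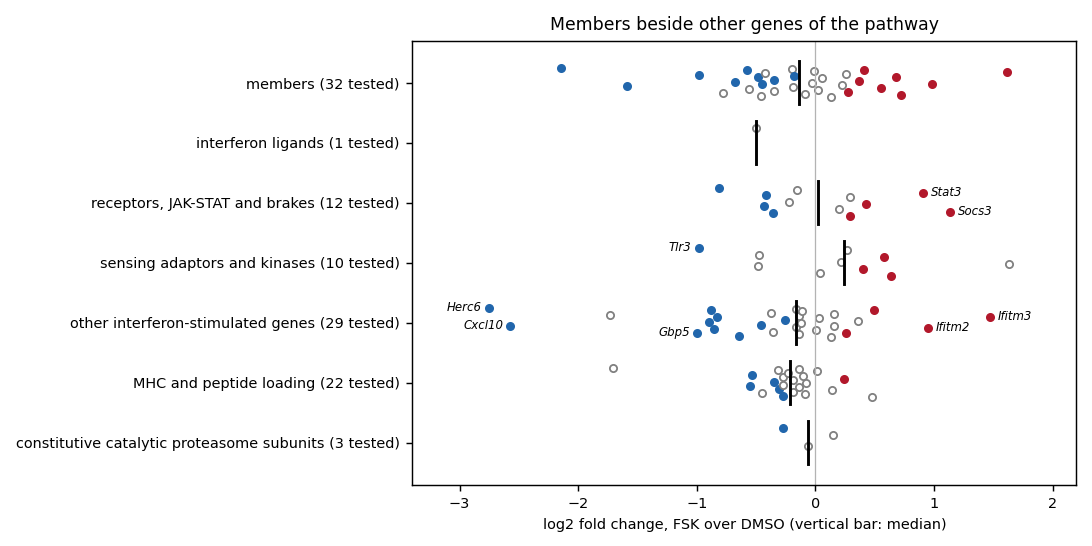
Log2 fold change (FSK over DMSO) of each tested gene, for the 32 described genes and for the other lists of the pathway; red rose, blue fell, open circles did not pass, and the vertical bar is the list's median. Medians lie between -0.50 (1 ligand gene) and 0.24 (sensing adaptors and kinases), and Cxcl10 and Herc6 lie farthest to the left.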

How the data were processed

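Bulk RNA sequencing was read from a table of 6 libraries, 3 per group. Per the submitters' processing notes, cutadapt, HISAT2, StringTie, edgeR and DESeq2 were used with the rat build Rnor_6.0; versions and settings are not given. The deposited values are whole-number counts per gene and FPKM, both so named in the file headers; FPKM was used for levels and in the limma alternatives. The annotation release, the strand rule and the counting unit (read or pair) were not given in any source used here.

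The test of the counts was that of edgeR 4.0.16, under R 4.3.3 (TMM factors, default expression filter, quasi-likelihood F test, FSK against DMSO, no covariate), with Benjamini-Hochberg adjustment over 14166 genes and a threshold of 0.05. SE and 95% intervals come from this fit. The test was checked on simulated counts. Alternatives used limma 3.58.1 on log2(FPKM + 1) and log2(FPKM + 0.1), DESeq2 1.42.0 and its size factors, no filter, a mean FPKM of at least 1, a replicate block, and each library left out.

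Totals were 72.1 to 80 M counts, the biological coefficient of variation was 20.8%, and replicates differed by more than counting noise. Labels do not say that replicates are separate cultures, so p-values measure only how these samples vary, a spread that may be technical. The members and lists were chosen with earlier results of these data known. All 34 members are named, with up to 4 called genes of the largest change per pathway list and every ligand with a count. Genes named beyond that rule (Ifngr2, Il10rb, Jak1, Psme3, overlapping and neighbouring genes and the marker genes) were picked with their values in view. Promoter windows are those of RefSeq on GRCr8, while positions of genes follow the deposited table, on Rnor_6.0.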

Additional observations from a re-analysis of the deposited data

How the results depend on the processing

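Over 13 alternative settings, 15 of the 17 called members kept their call and direction in each setting that gave a value; Irf1 and Oas1a lost theirs, as given with their values, and the mean FPKM filter gave no value for the low genes. Members that rose numbered 7 to 9 and those that fell 8 to 9 when a library was left out. The median log2 fold change of the members was -0.0653 with a mean FPKM of at least 1, where fewer genes are tested, -0.0833 and -0.198 with limma on log2(FPKM + 1) and log2(FPKM + 0.1), where the median of all genes was -0.0554 and -0.0767 and the cause was not tested, and -0.166 to -0.0415 without 1 library. Pathway genes that fell numbered 13 to 19 without 1 library, against 20.

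Directions reversed only among members that did not pass. Irf2 was at -0.00865 and -0.00906 and Tap2 at -0.0465 and -0.0499 with the 2 limma settings. Without 1 library, the log2 fold change ran from -0.0109 to 0.125 for Irf2, from -0.0234 to 0.0606 for Tap2, from -0.0669 to 0.0371 for Stat2, from -0.104 to 0.065 for Psmb10 and from -1.71 to 0.152 for Ifit3. Bst2 passed with both limma settings (adjusted p = 0.0167 and 0.0171).

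Same-numbered libraries did not deviate together (correlations of -0.0814, 0.00847 and -0.104 for numbers 1 to 3), so the numbers were not read as pairs. With the replicate block, 7 members rose and 8 fell, the median was -0.136, and over all genes 2160 rose and 2165 fell. Among the members and the named pathway genes the block ended the calls of Irf1 (adjusted p = 0.113), Oas1a (0.0601), Jak2 (0.113), Tlr3 (0.118) and Herc6 (0.0637). Low genes such as Mx2, Oas1a, Oasl, Ifit3 and Rsad2 are limited by their counts.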

Other observations

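Other copies of the members' gene families, chosen after their values were seen, did not all follow the named copy. Of 10 genes whose symbol starts with Oas, 6 were tested, 2 rose and 3 fell, beside 19.6% rises and 19.8% falls over all tested genes: Oas1a and Oasl rose, while Oas1g, Oas1i and Oas1k fell. Oas1i gave 239, 335 and 193 counts in the DMSO libraries against 126, 93 and 112 in the FSK libraries (log2 fold change -1.13 ± 0.26, edgeR adjusted p = 0.00932), and Oas1k had 258, 324 and 281 against 139, 165 and 148 counts (-0.84 ± 0.19, adjusted p = 0.00892). In both, every FSK library was below every DMSO library, opposite to Oas1a. Ifi27l2b, a relative of Ifi27, fell from 1096, 1320 and 1344 counts to 685, 612 and 783 (-0.77 ± 0.11, adjusted p = 0.000894), while Ifi27 rose. How reads were divided among such copies is not given in the sources used here.

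Of 31 RT1 genes, the MHC genes of the rat, 22 were tested, of which 8 fell and 14 did not pass (edgeR, adjusted p of 0.05), beside a background of 19.8% falls. The falls included RT1-T24-1, at 2185, 2908 and 2414 counts in the DMSO libraries against 1439, 1481 and 1623 in the FSK libraries (-0.64 ± 0.10, adjusted p = 0.00194). RT1-A1, a classical class I gene, gave 2481, 3306 and 2172 counts in the DMSO libraries against 3847, 2550 and 4145 in the FSK libraries, overlapping groups with a positive log2 fold change of 0.48 ± 0.19 (adjusted p = 0.0762).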
